A study of Arabidopsis thaliana with 12 samples.

Results

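Indole glucosinolates were followed through 10 Arabidopsis thaliana genes that make and modify them, out of 32833 genes listed in the table of each accession. The members were named by symbol and gene identifier: 3 enzymes of the core pathway (CYP79B2, CYP79B3 and CYP83B1), 3 MYB regulators (MYB34, MYB51 and MYB122) and 4 enzymes that modify the indole ring (CYP81F2, IGMT1, IGMT2 and IGMT3). They were chosen by function but with the deposited fold changes under abscisic acid (ABA) known in both accessions. Those fold changes and their differences are therefore described here and not offered as tests. All 10 were measured in both accessions. The data are messenger RNA levels from whole seedlings of the natural strains (accessions) Kn-0 and Col-0, of which Col-0 gave the reference genome. Seedlings grown for 4 days under continuous light were moved for 3 h to control medium, called mock, or to medium with 5 µM ABA, the hormone that plants build up under drought. This gave 12 libraries in 4 groups of 3: Col-0 mock, Col-0 ABA, Kn-0 mock and Kn-0 ABA. No group carries a mutation or a transgene, and the labels do not say whether the replicates came from separate plantings, so errors measure the spread between these samples.

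Indole glucosinolates are sulfur-rich defence compounds made from tryptophan. CYP79B2 and CYP79B3 turn tryptophan into indole-3-acetaldoxime, and CYP83B1 oxidises this and commits it to glucosinolates. MYB34, MYB51 and MYB122 are transcription factors that switch these genes on. CYP81F2 adds a hydroxyl group to the indole ring and the indole glucosinolate methyltransferases (IGMTs) methylate it, which gives the methoxy compound that myrosinases break down in defence against fungi and aphids.

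The ring-modifying genes are shown first, because the largest changes of all members lay in them. IGMT1 (AT1G21100, chr1:7386762-7388512), IGMT3 (AT1G21110, chr1:7389981-7391603) and IGMT2 (AT1G21120, chr1:7395179-7396823) lie side by side on the minus strand of the TAIR10.1 assembly, followed by IGMT4 (AT1G21130, chr1:7398814-7400736). CYP81F2 (AT5G57220) lies on the plus strand at chr5:23187840-23189902. The 250 bases upstream of each RefSeq gene start are printed on the strand of the gene, with TTGAC, the core of the W-box bound by WRKY factors, and ACGTG, the core of the ABA-responsive element, in capitals on either strand. On the opposite strand these read GTCAA and CACGT. The windows are chr5:23187590-23187839 for CYP81F2, chr1:7388513-7388762 for IGMT1, chr1:7396824-7397073 for IGMT2 and chr1:7391604-7391853 for IGMT3.
CYP81F2: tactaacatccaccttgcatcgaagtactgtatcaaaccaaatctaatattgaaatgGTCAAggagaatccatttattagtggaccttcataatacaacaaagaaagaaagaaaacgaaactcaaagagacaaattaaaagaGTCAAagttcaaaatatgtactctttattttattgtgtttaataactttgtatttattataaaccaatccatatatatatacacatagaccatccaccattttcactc
IGMT1: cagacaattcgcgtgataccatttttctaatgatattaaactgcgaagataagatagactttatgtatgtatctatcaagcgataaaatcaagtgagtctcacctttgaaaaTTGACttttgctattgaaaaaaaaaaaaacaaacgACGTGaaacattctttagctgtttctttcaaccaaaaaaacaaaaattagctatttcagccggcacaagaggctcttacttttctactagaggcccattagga
IGMT2: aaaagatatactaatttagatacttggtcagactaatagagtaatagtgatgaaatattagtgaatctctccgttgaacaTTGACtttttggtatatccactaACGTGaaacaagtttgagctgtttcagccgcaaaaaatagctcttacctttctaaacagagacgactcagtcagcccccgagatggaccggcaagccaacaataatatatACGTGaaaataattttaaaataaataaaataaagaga
IGMT3: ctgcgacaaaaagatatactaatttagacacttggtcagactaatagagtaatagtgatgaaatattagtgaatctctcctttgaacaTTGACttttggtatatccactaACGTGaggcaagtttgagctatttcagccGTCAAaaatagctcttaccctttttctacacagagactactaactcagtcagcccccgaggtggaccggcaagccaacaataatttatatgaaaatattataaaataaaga

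All 4 windows held TTGAC, and the 3 IGMT windows also held ACGTG. Over the members as a whole, TTGAC was in 5 of 10 windows, against 44.9% of 27443 windows of this length upstream of RefSeq genes. ACGTG was likewise in 5 of 10, against 22.9%. For both motifs, 3 of the 5 windows were those of the neighbouring copies IGMT1, IGMT2 and IGMT3, which do not count as independent matches. The longer G-box CACGTG, which contains ACGTG, was in 0 of 10, against 6.49%. These are matches of letters in the reference strain, and no binding was measured.

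The IGMT genes are so alike that part of their sequence cannot tell them apart. IGMT2 and IGMT3 shared 97.4% of their aligned coding bases, IGMT1 and IGMT3 93.0%, and IGMT3 and IGMT4 93.4%. Of all stretches of 50 bases in the transcripts, 35.4% in IGMT2, 42.6% in IGMT3 and 12.1% in IGMT1 occurred unchanged in another gene of the family. At 100 bases the shares were 21.4%, 22.1% and 3.46%. The other 7 members had 0 such stretches at either length, so reads shared between copies could mix the values of IGMT2 and IGMT3, and to a lesser extent those of IGMT1. How the authors' counting treated such reads is not given in the sources used here.

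The treatment and the tissue were visible in both accessions. All 6 ABA control genes rose in both, with log2 fold changes of 2.77 to 6.73 for Col-0 and 2.51 to 6.96 for Kn-0 in the authors' deposited tables. All 9 root markers and all 7 shoot markers were detected, so both organs were sampled. Of the root markers, 7 fell and 0 rose in Col-0, and 6 fell and 0 rose in Kn-0, with medians of -0.39 and -0.41. Of the shoot markers, 1 fell and 2 rose in Col-0, and 1 fell and 3 rose in Kn-0. Among all tested genes 18.4% fell and 19.8% rose in Col-0, and 21.5% fell and 22.9% rose in Kn-0. In whole seedlings, fewer cells of a type and less RNA per cell cannot be told apart, and the part of the root marker change in any value below was not tested. Library values came from reads over splice junctions, between 10572746 and 11578595 per library over 1 event per gene. In the gene tables a gene was called at the authors' adjusted p under 0.05.

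In Col-0, ABA lowered the message of the ring-modifying enzymes by 8.07-fold to 16.1-fold and that of the core enzymes by much less. Of the 10 members 8 passed as lower and 0 as higher in the authors' deposited table. Of 23687 tested genes there, 38.3% passed, 18.4% lower and 19.8% higher. The median log2 fold change of the members was -0.91, and that of all tested genes was 0.00. For Kn-0, 4 members passed as lower and 1 as higher in the authors' deposited table. Of 23710 tested genes there, 44.4% passed, 21.5% lower and 22.9% higher. The median of the members was -0.20 there, and that of all tested genes 0.00. CYP79B3, CYP83B1, IGMT1 and IGMT3 were the 4 that passed as lower in both.

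**Figure D1:**
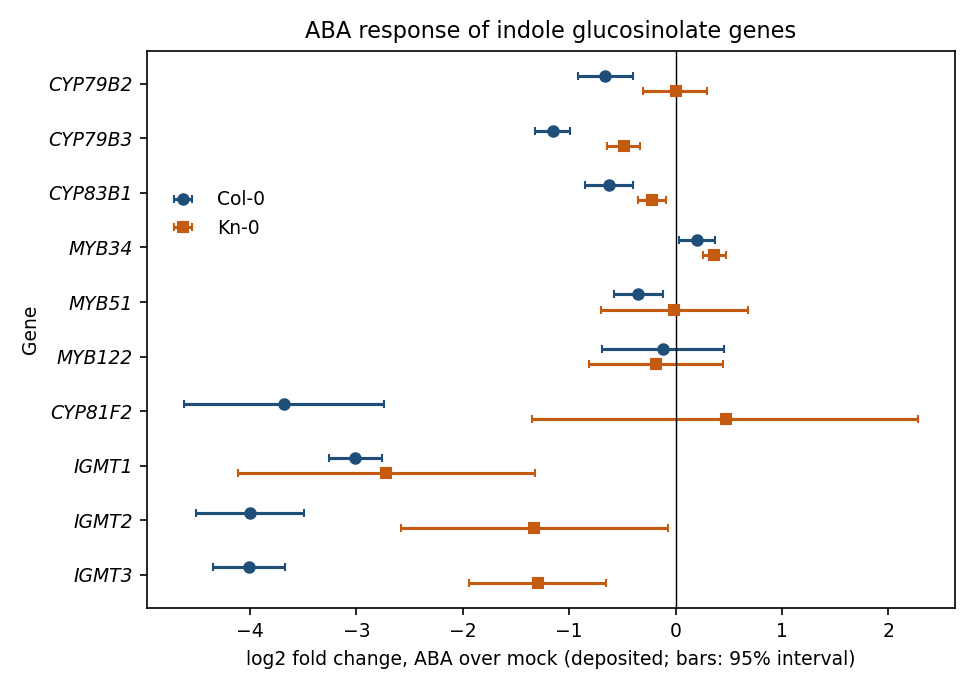
Deposited log2 fold change of ABA over mock (x axis) for each member (y axis), with circles for Col-0, squares for Kn-0 and bars for 95% intervals from the deposited standard errors. CYP81F2, IGMT2 and IGMT3 lie near -4 in Col-0, while in Kn-0 CYP81F2 lies at 0.47 with an interval that reaches from -1.35 to 2.28.

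CYP79B2 and CYP79B3 are the paired enzymes of the entry step, with 81.5% of coding bases in common. In Col-0, CYP79B2 (AT4G39950, chr4:18525042-18527602) fell from 6400 to 4040 normalized counts, group means worked out from the mean and the fold change in the authors' deposited table. That log2 fold change was -0.66 ± 0.133 (standard error, n = 3 libraries per group). In Kn-0 the same gene stood at 6760 and 6750 normalized counts, and the authors' deposited table gave -0.00 with a 95% interval from -0.31 to 0.30. For CYP79B2 in Col-0 the 95% interval ran from -0.92 to -0.40. CYP79B3 (AT2G22330, chr2:9488413-9491404) fell in both accessions. Its group means went from 6070 to 2730 normalized counts in Col-0, a log2 fold change of -1.15 ± 0.083 in the authors' deposited table. The Kn-0 means went from 7910 to 5660, a change of -0.48 ± 0.0802 in the authors' deposited table. CYP79B3 had the deepest decrease of the 3 core enzymes in each accession.

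CYP83B1 (AT4G31500, chr4:15273410-15275404), the next enzyme, fell 1.55-fold in Col-0 and 1.16-fold in Kn-0. The authors' deposited tables gave log2 fold changes of -0.63 ± 0.115 and -0.22 ± 0.0651. Per kilobase of exon it had the highest level of the 10 members, 5630 normalized counts in Col-0 mock and 3660 under ABA, from the deposited means. CYP79B2 and CYP79B3 followed in Col-0 mock with 2990 and 2710 per kilobase, then MYB34 with 1870, IGMT3 with 1300 and IGMT1 with 757. IGMT2 stood at 394, MYB51 at 342, CYP81F2 at 291 and MYB122 at 31.9 per kilobase. These levels are derived group means with no spread over libraries, so the order of close neighbours such as CYP79B2 and CYP79B3 was not tested.

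Of the 3 regulators, 1 fell in Col-0 and 1 rose in Kn-0. For comparison, 18.4% of all tested genes fell in Col-0 and 22.9% rose in Kn-0. MYB34 (AT5G60890, chr5:24494291-24496371), a main activator of the pathway in roots, rose in Kn-0, with a log2 fold change of 0.36 ± 0.0549 in the authors' deposited table. In Col-0 it stood at 0.20 ± 0.0874 there and just missed the threshold, at an adjusted p of 0.052. MYB51 (AT1G18570, chr1:6389399-6391386), which acts mainly in shoots, fell 1.28-fold in Col-0 with a deposited log2 fold change of -0.35 ± 0.116. Its Kn-0 value in the authors' deposited table was -0.01 ± 0.351, an error 3.02 times that in Col-0. MYB122 (AT1G74080, chr1:27855578-27857598), a minor member of the group, did not pass in either accession. The authors' deposited tables gave it -0.12 ± 0.294 for Col-0 and -0.18 ± 0.323 for Kn-0. It had the lowest mean of all members there, 47.9 normalized counts for Col-0 and 62.5 for Kn-0.

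Junction reads gave library values for 2 members in each accession, MYB34 and MYB51 in Col-0 and MYB34 and CYP81F2 in Kn-0. The other 8 in each had no event in the splicing tables used here. Scaled to 1000000 junction reads, MYB34 had 53.3, 58.4 and 48.3 reads in the Col-0 mock libraries and 61.8, 68.2 and 63.2 in the Col-0 ABA libraries. Every ABA library was above every mock library. In Kn-0 the mock libraries held 62.7, 62.3 and 61.1 and the ABA libraries 83.3, 86.5 and 83.9, again without overlap and with little spread inside a group. The share of all genes that separate in this way was not counted, so the lack of overlap by itself does not set MYB34 apart.

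With limma-voom over all genes that had enough junction reads, MYB34 was higher under ABA by 0.28 ± 0.0892 on the log2 scale in Col-0 and by 0.45 ± 0.0631 in Kn-0. It passed in both. This test called 27.9% of 12842 genes in Col-0 and 35.1% of 12656 in Kn-0. Junction reads and deposited fold changes come from the same libraries, and that contrast was known when MYB34 was chosen. Passing here is therefore no separate evidence. In Col-0 the call was lost when mock library 1, mock library 3 or ABA library 2 was left out, with log2 values of 0.27, 0.20 and 0.23. On the same scale MYB51 had 7.01, 5.86 and 5.09 junction reads in Col-0 mock and 5.73, 7.70 and 6.52 in Col-0 ABA. The groups overlapped, and the difference of 0.15 ± 0.199 did not pass and had the opposite sign to its deposited gene-level change. That gene-level change of MYB51 therefore was not seen in its junction reads, of which there were 60 to 81 per library.

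**Figure D2:**
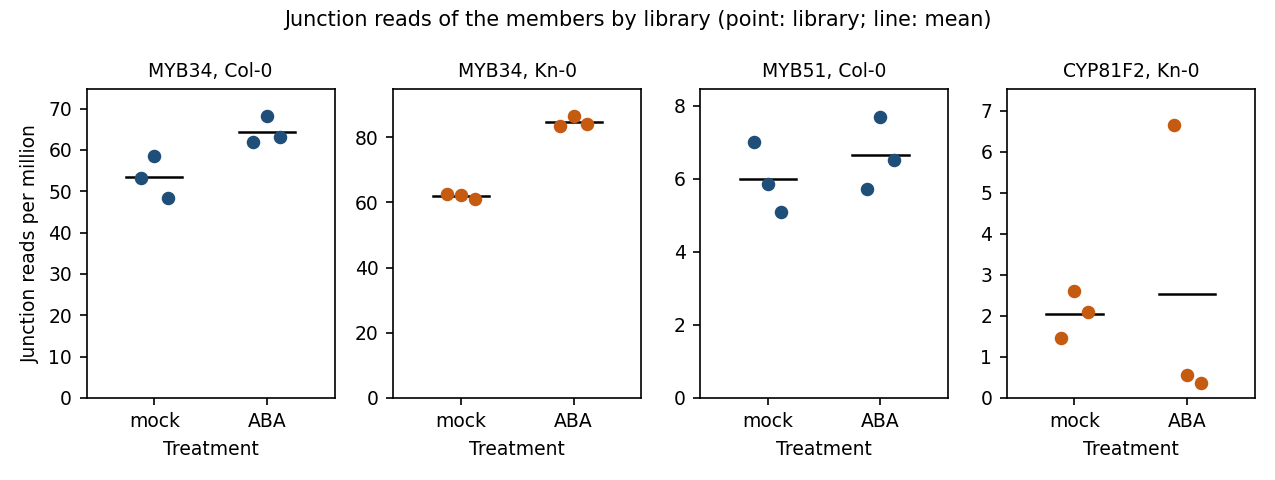
Junction reads per 1000000 (y axis, from 0) in each mock and ABA library (x axis) for the members with an event, 1 panel per gene and accession, with points for libraries and lines for means. MYB34 separates the treatments in both accessions, MYB51 does not, and 1 Kn-0 ABA library of CYP81F2 stands at 6.66 while the other 2 stand at 0.558 and 0.365.

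CYP81F2, the ring hydroxylase, had the widest gap of all members between the fold changes of the accessions. In Col-0 its mean went from 514 to 40.1 normalized counts, a 12.8-fold decrease with a log2 fold change of -3.68 ± 0.478 in the authors' deposited table. In Kn-0 the means were 144 and 198, and the authors' deposited table gave 0.47 ± 0.925, which did not pass. The Kn-0 mock libraries had 17, 30 and 25 junction reads of CYP81F2, and the ABA libraries had 73, 6 and 4. Per 1000000 junction reads this was 1.47, 2.6 and 2.1 in mock and 6.66, 0.558 and 0.365 under ABA. The first ABA library was thus above every mock library, and the other 2 were below every mock library.

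Over all 6 Kn-0 libraries the junction reads of CYP81F2 changed by -0.79 ± 0.604 on the log2 scale and did not pass. That fit works on the log value of each library, and its sign was opposite to that of the deposited change of 0.47. With libraries this far apart, neither sign shows a direction for the gene. Without the first ABA library the value was -2.04 ± 0.52 and passed, with the adjusted p at 0.0044 in limma-voom. That library was more than 4-fold above both other Kn-0 ABA libraries in 4 of 12656 genes, CYP81F2 among them. The gene-level fold change could not be refitted without it, because the deposited gene tables hold no library values. Without the second or the third ABA library in turn, the value was -0.31 or -0.01 and did not pass. The junction-read change of CYP81F2 in Kn-0 thus depended on which ABA library was left out, and its difference from Col-0 was not tested without any of them.

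The methyltransferases had their deepest decreases in Col-0. IGMT3 went from 1860 to 116 normalized counts in Col-0, a 16.1-fold decrease with a log2 fold change of -4.01 ± 0.173 in the authors' deposited table. In Kn-0 it went from 1500 to 612, a 2.45-fold decrease of -1.29 ± 0.33 in the authors' deposited table. Both decreases passed, and their 95% intervals, from -4.35 to -3.67 and from -1.94 to -0.65, did not overlap. IGMT2 went from 574 to 35.9 normalized counts in Col-0, with a log2 fold change of -4.00 ± 0.259 in the authors' deposited table. Its Kn-0 value was -1.33 ± 0.642 in the authors' deposited table and did not pass (adjusted p of 0.081). IGMT1 fell 8.07-fold in Col-0 and 6.57-fold in Kn-0. The authors' deposited tables gave IGMT1 -3.01 ± 0.127 and -2.72 ± 0.713.

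The neighbouring copy IGMT4 did not share this decrease. It rose in both accessions, and the authors' deposited tables gave log2 fold changes of 0.21 ± 0.0646 and, for Kn-0, 0.32 ± 0.0666. Per kilobase of exon it stood at 6440 normalized counts in Col-0 mock, above IGMT1, IGMT2 and IGMT3. IGMT5 (AT1G76790), a more distant relative on the same chromosome with 77.3% to 78.0% of coding bases in common with the other 4, methylates another position of the indole glucosinolate. It fell in both accessions, with -1.18 ± 0.136 and -0.96 ± 0.0847 in the authors' deposited tables.

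The errors of the ring-modifying genes were unusually wide in Kn-0. Among 11659 Kn-0 genes with a mean of 100 to 2000 normalized counts, the deposited standard errors had a median of 0.093 and a 99th percentile of 0.289. CYP81F2 had one of 0.925, and 5 of those genes, CYP81F2 itself included, had an error at least as large in the authors' deposited table. The same count, again with the gene itself, was 20 for IGMT1, 26 for IGMT2, 98 for MYB51 and 105 for IGMT3. In Col-0, where the 99th percentile was 0.420 over 11419 genes of that range, the authors' deposited table held 95 such genes for CYP81F2, 259 for IGMT2, 1644 for IGMT3, 4078 for IGMT1 and 5072 for MYB51. Of these 5 genes, all had an error above the 99th percentile in Kn-0 and CYP81F2 alone in Col-0. Whether the library that stood apart for CYP81F2 also widened the errors of the IGMT genes and MYB51 was not tested, as their library values in Kn-0 were not analysed here.

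**Figure D3:**
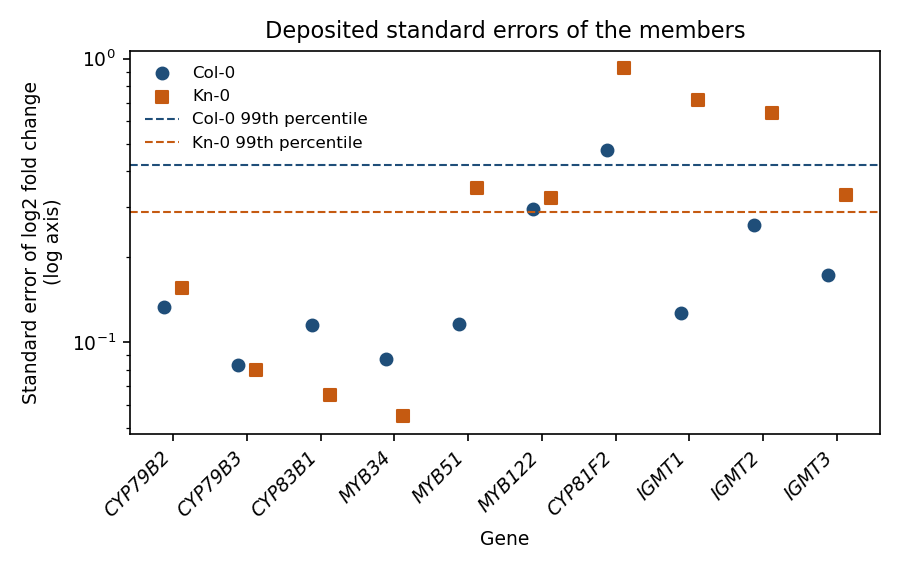
Deposited standard error of the log2 fold change (y axis, log scale) for each member (x axis), with circles for Col-0, squares for Kn-0 and dashed lines for the 99th percentile of genes with a mean of 100 to 2000 normalized counts. The Kn-0 squares of MYB51, CYP81F2, IGMT1, IGMT2 and IGMT3 lie above the Kn-0 line at 0.289; MYB122, also above it, has a mean below that range.

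The difference of the ABA responses, Kn-0 minus Col-0, was more positive in Kn-0 for 9 of 10 members, against 46.7% of 22001 genes tested in both tables. That share covers genes of either direction, whereas 8 of the 10 members had passed as lower in Col-0. The share among genes that fell in Col-0 was not counted, so 9 of 10 has no like comparison. By a Wald test on the gap between deposited fold changes, 5 members passed, against 3.45% of all tested genes. Of those genes, 1.95% passed with a more positive value in Kn-0. The 5 members were CYP81F2 with 4.15 ± 1.0, IGMT3 with 2.72 ± 0.37, IGMT2 with 2.67 ± 0.69, CYP79B3 with 0.67 ± 0.12 and CYP79B2 with 0.66 ± 0.21, all differences of log2 fold changes. The genome build behind the Kn-0 values is not given, and IGMT2 and IGMT3 share sequence with other copies. For IGMT2 and IGMT3, accession, build and read sharing cannot be told apart here. IGMT1 differed by 0.30, with a 95% interval from -1.12 to 1.72, which lies below that of IGMT3, from 1.99 to 3.45, and overlaps that of IGMT2, from 1.32 to 4.03. CYP83B1 differed by 0.41, with an interval from 0.15 to 0.67, and did not pass after adjustment. The regulators MYB34, MYB51 and MYB122 differed by 0.16, 0.34 and -0.06, and 0 of them passed.

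Over the 7366 genes called in both, the Kn-0 responses had a least-squares slope of 0.805 on those in Col-0. Large responses weigh most in this slope, and errors in the Col-0 values also lower it. After the Kn-0 values were divided by this slope, 3 members passed, CYP79B3, CYP81F2 and IGMT3. CYP79B2 and IGMT2 then did not, although their differences stayed at 0.66 ± 0.24 and 2.35 ± 0.84, with wider errors. The difference of IGMT1 turned from 0.30 to -0.36. The share of all tested genes that passed after this division was not counted, so the drop in members is not set against other genes.

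Among other genes of the pathway, more were lower than higher in both accessions. Of 44 such genes 42 were measured in Col-0, where 23 fell, 3 rose and 16 did not pass, with a median log2 fold change of -0.30. In Kn-0 21 of 44 fell, 6 rose and 17 did not pass, with a median of -0.12. Among all tested genes 18.4% fell and 19.8% rose in Col-0, and 21.5% fell and 22.9% rose in Kn-0. In the difference of responses 4 of 42 passed, against 3.45% of all tested genes. All 4 were more positive in Kn-0: ASA1 and IGPS of tryptophan synthesis, GGP1 of the core pathway and the myrosinase PEN2. The lists of these other genes were written with earlier results of these data known, so these counts are no independent evidence.

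Among 8 genes of tryptophan supply, 4 fell and 0 rose in Col-0, and 4 fell and 1 rose in Kn-0. For comparison, 18.4% of all tested genes fell in Col-0 and 21.5% in Kn-0. ASA1, the feedback-regulated first enzyme of tryptophan synthesis, fell in both, with -0.51 ± 0.0747 for Col-0 and -0.18 ± 0.0637 for Kn-0 in the authors' deposited tables. IGPS, which closes the indole ring, fell in Col-0 and rose in Kn-0, with -0.20 ± 0.0827 and 0.27 ± 0.0573 in the authors' deposited tables. Of the 6 enzymes after CYP83B1, 5 fell and 0 rose in each accession. SUR1, the C-S lyase of this stretch, had the deepest decrease of the 6 in both, -0.68 ± 0.116 and, for Kn-0, -0.32 ± 0.0505 in the authors' deposited tables. GGP1, which trims the glutathione conjugate, had -0.63 ± 0.122 and -0.20 ± 0.0475 there. GSTF10 in Col-0 and SOT16, the sulfotransferase of the last step, in Kn-0 were the ones that did not pass.

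Other ring hydroxylases also fell in both accessions. CYP81F3 stood at -1.37 ± 0.138 for Col-0 and -1.38 ± 0.113 for Kn-0, and CYP81F4 at -0.74 ± 0.138 and -0.82 ± 0.1, in the authors' deposited tables. Their differences between accessions were 0.00 and -0.08 and did not pass. CYP81F1 was listed at 0 in the Col-0 table and did not pass in Kn-0. Whether that 0 reflects expression or annotation was not tested. Of 8 genes that provide activated sulfate, 0 rose in either accession, while 5 fell in Col-0 and 4 in Kn-0. The shares of all tested genes that fell were 18.4% in Col-0 and 21.5% in Kn-0. APS3, an ATP sulfurylase, was at -0.58 ± 0.135 and -0.70 ± 0.0791, and APR3, an APS reductase, at -0.67 ± 0.109 and -0.70 ± 0.0798, in the authors' deposited tables.

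Of 3 glucosinolate transporters, NPF2.11 (GTR2) fell in both accessions, with -1.36 ± 0.0761 and -1.30 ± 0.0617 in the authors' deposited tables. NPF2.9 fell in Col-0, at -0.30 ± 0.0941, and NPF2.10 (GTR1) rose in Kn-0, at 0.28 ± 0.0514, in the authors' deposited tables. Among 10 genes of breakdown and its products, 3 fell and 1 rose in each accession, close to the 38.3% and 44.4% of all tested genes called. PEN3, an exporter that works beside PEN2 in defence, fell in both, with -1.45 ± 0.109 and -1.18 ± 0.191, and the nitrile specifier NSP5 rose in both, with 1.61 ± 0.0669 and 1.52 ± 0.0441 in the authors' deposited tables. The myrosinase gene TGG2 did not pass in either. Its mean was 2866 normalized counts for Col-0 and 6.7 for Kn-0 in the authors' deposited tables, which were scaled separately and rest on different annotations. Of the bHLH partners of the MYB factors, MYC4 fell in both, with -0.35 ± 0.079 and -0.43 ± 0.068 in the authors' deposited tables. MYC3 did not pass in either, and MYC2, listed at 0 for Col-0, rose by 0.26 ± 0.0552 under ABA in the authors' deposited table of Kn-0. NIG1 rose in both, by 1.13 ± 0.408 and 1.96 ± 0.107 there. Whether the 0 of MYC2 in Col-0 reflects expression or annotation was not tested.

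**Figure D4:**
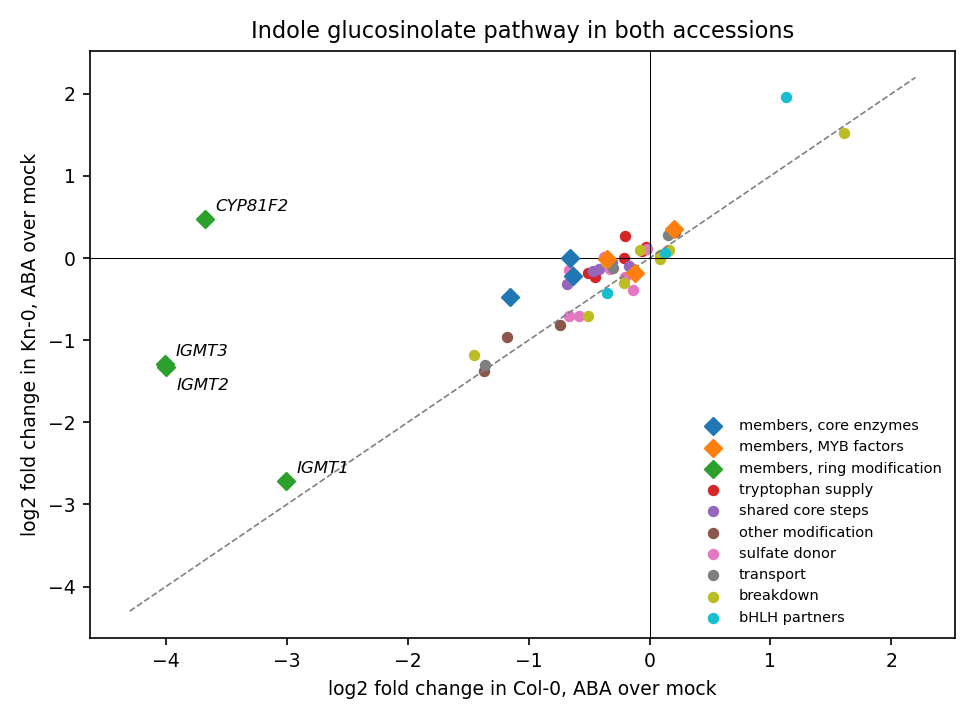
Deposited log2 fold change in Kn-0 (y axis) against that in Col-0 (x axis) for each measured pathway gene, with diamonds for the members, circles for other pathway genes coloured by step and a dashed line of equal change. CYP81F2, IGMT2 and IGMT3 lie far above the line, while IGMT1 at -3.01 and -2.72 lies close to it.

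Splicing of the members was described from the 5 events of MYB34 and MYB51 in Col-0 and the 2 events of MYB34 and CYP81F2 in Kn-0. By the authors' rMATS test, 0 of them changed under ABA, against 0.162% of 163944 events called in Col-0 and 0.114% of 168812 in Kn-0. The false discovery rate of each member event was 1 in the authors' deposited table. MYB34 and MYB51 carried alternative acceptors at the start of exon 2, so this junction is printed for the 3 regulators from the TAIR10.1 assembly. Each line holds 30 bases of intron 1 and 30 bases of exon 2, with the AG dinucleotides of the acceptors used in capitals. The stretches are chr5:24495224-24495283 for MYB34, chr1:6389985-6390044 for MYB51 and chr1:27856192-27856251 for MYB122, all on the plus strand.
MYB34: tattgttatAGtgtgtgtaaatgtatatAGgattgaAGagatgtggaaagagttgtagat
MYB51: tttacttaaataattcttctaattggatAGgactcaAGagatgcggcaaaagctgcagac
MYB122: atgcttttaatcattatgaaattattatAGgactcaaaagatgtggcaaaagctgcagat

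In MYB34 the acceptor 19 bases upstream of exon 2 took 2.57% ± 0.73 (SD, n = 6) of the Col-0 reads compared at that junction, 101 of 3895 in all. The single libraries ran from 1.62% to 3.35%. The ABA libraries exceeded the mock libraries by 0.537 percentage points on average, with overlapping values and a two-sided exact permutation p of 0.4. The Kn-0 splicing tables used here list no event at that acceptor for MYB34.

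The acceptor 8 bases inside exon 2, which shifts the reading frame, was listed for MYB34 in both accessions. In Col-0 it took 0, 0 and 1 reads in the mock libraries and 0, 1 and 0 in the ABA libraries, together 2 of 3796. In Kn-0 it took 5, 12 and 3 reads in mock and 4, 11 and 8 under ABA, together 43 of 4932. Every Kn-0 library was above every Col-0 library. How often other splice sites separate in this way was not counted. The mean shares were 0.0535% ± 0.084 in Col-0 and 0.877% ± 0.48 in Kn-0 (SD, n = 6 each), and a Col-0 library at 0 of 606 reads allows a share of up to 0.495%.

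The difference of 0.824 percentage points had an exact two-sided permutation p of 0.005, with labels permuted within mock and within ABA. This is the smallest value the design allows, and it was 0.025 adjusted over the 5 comparisons of splice sites. Within mock alone the difference was 0.865 and within ABA alone 0.783, each with the smallest exact permutation p that 3 against 3 allows, 0.1. In Kn-0 mock and ABA differed by -0.0941 percentage points (two-sided exact permutation p of 0.9). This site was chosen after its values were seen. The Kn-0 reads were placed on another assembly than TAIR10, so accession and assembly cannot be told apart here. In MYB51 the acceptor at the same place took 0 of 207 reads in Col-0 mock and 2 of 212 in Col-0 ABA. MYB122 has no AG at that place and had no event.

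**Figure D5:**
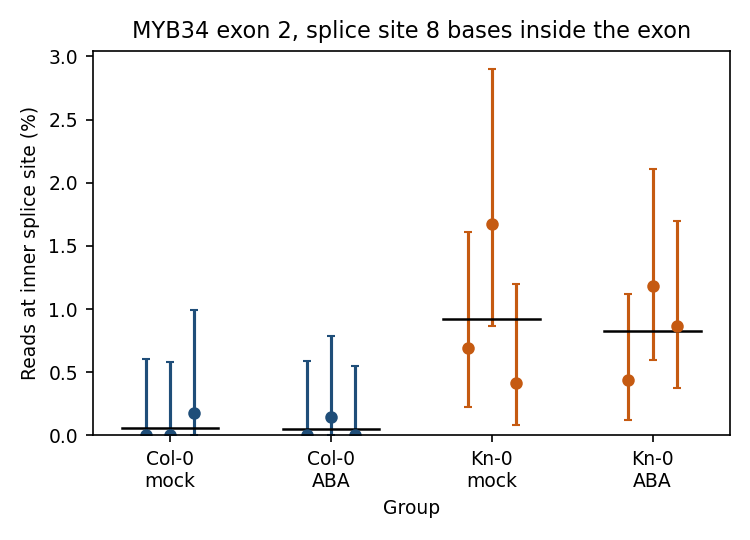
Share of MYB34 reads (y axis, percent) that used the acceptor 8 bases inside exon 2, for each library in the 4 groups (x axis), with points for libraries, bars for exact 95% binomial intervals and lines for group means. The 6 Kn-0 libraries lie between 0.413% and 1.67%, and the 6 Col-0 libraries between 0% and 0.179%.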

How the data were processed

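Polyadenylated RNA of 12 whole-seedling libraries was sequenced, in 4 groups set by the labels. The members and lists were chosen with earlier results of these data known. The submitters' processing notes name STAR, featureCounts and DESeq2 without versions, and TAIR10 for the Col-0 samples only. The build of the Kn-0 tables is not given in the sources used here. Of retained introns, 93.4% in Col-0 but 0.279% in Kn-0 had GT and AG ends on TAIR10.1, so no Kn-0 position is printed and junction reads were not compared between the accessions except as shares at the MYB34 site.

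Each gene table holds a mean signal deposited by the authors, which per the file headers is the mean of normalized counts over all libraries of 1 accession. Its log2 fold change and standard error, as deposited, come from the authors' DESeq2 fit of ABA against mock. The deposited Wald statistic and the deposited inclusion difference of the splicing tables are each a score. Each p-value, raw or adjusted, in those deposited tables was computed by the authors. Column names of the Kn-0 gene table were moved by 1 place, to where its values lie. The tables were scaled separately, with 27801 genes in both and 5032 in each alone. Group means were worked out from the deposited mean and fold change, assuming equal groups.

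The authors' rMATS tables list inclusion levels, a deposited fraction, and junction reads of 3 libraries per cell, whose separators were often lost. Digits were divided so that the inclusion levels were met within 0.0005, which gave 1 solution for 141660 of 192386 events of Col-0 and for 141911 of 196149 events of Kn-0. Only these entered the fits. Each ambiguous event was given the solution with the most even library totals, and these events also count in the splicing shares. For the ambiguous Col-0 MYB34 event 8 bases inside exon 2, the solution matched the counts of unambiguous events that share its junctions. Library numbers are places in the cell, not replicate numbers. Since these reads were recovered and not held as counts, limma-voom was used (limma 3.58.1, R 4.3.3) in place of the planned edgeR test, with TMM scaling and each accession in its own fit. The log2 ratio of junction reads had r = 0.964 with the deposited fold change over 12793 genes in Col-0 and r = 0.960 over 12605 in Kn-0, across genes. The planned comparison of mock junction reads between accessions was not run, as it needed shared coordinates. The scripts were tested on simulated data. Differences of deposited fold changes were tested by a two-sided Wald z with Benjamini-Hochberg adjustment over 22001 genes. Intervals of shares are exact binomial at 95%, and the limit of a share at 0 is 3 reads of the total; both cover counting error only. Named were all members, and other pathway genes that were called or belong to lists of 6 or fewer. Python 3.11.15 and scipy 1.17.1 were used, and sequences are from RefSeq TAIR10.1.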

Additional observations from a re-analysis of the deposited data

Results flagged for a closer look

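Each value here is a difference of log2 fold changes, Kn-0 minus Col-0, that passed the Wald test of the difference between accessions over 22001 genes. Among the members these were CYP81F2 with 4.15, IGMT3 with 2.72, IGMT2 with 2.67, CYP79B3 with 0.67 and CYP79B2 with 0.66. The members were chosen with these responses known, and the lists of other pathway genes with earlier results of these data known. Passing is therefore no independent evidence for either. Among the other pathway genes, IGPS differed by 0.46 (adjusted p = 0.00038), GGP1 by 0.43 (adjusted p = 0.035), ASA1 by 0.33 (adjusted p = 0.029) and PEN2 by 0.31 (adjusted p = 0.034). All 9 were more positive in Kn-0. For IGMT2 and IGMT3, accession cannot be told apart from genome build and from reads shared between copies. For CYP81F2 the first Kn-0 ABA library had 73 junction reads against 6 and 4 in the others.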

How the results depend on the processing

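With a log2 change of at least 1 required, 5 members in place of 8 were called in Col-0 and 2 in place of 5 in Kn-0. With the Kn-0 responses divided by the slope of 0.805, 3 members in place of 5 passed the difference between accessions, while the lost CYP79B2 and IGMT2 stayed at 0.66 and 2.35 with wider errors and IGMT1 changed sign, at -0.36. Limiting both tables to genes averaging 50 or more normalized counts gave 6, CYP83B1 joining the 5, and no filter gave 5. The shares of all tested genes that pass at these settings were not counted. When each library was left out in turn, 0 to 1 members passed by junction reads in Col-0 and 1 to 2 in Kn-0, and the difference at the MYB34 site 8 bases inside exon 2 ran from 0.638 to 0.952 percentage points. Leaving out the first Kn-0 ABA library brought in CYP81F2. An adjusted p under 0.01, RLE scaling, no filter on junction reads and other splicing limits kept the counts of members called. Skipping reads alone kept the count in Col-0, while no member had enough of them in Kn-0 for that fit. At 0.01, 21 other pathway genes were called in each accession, in place of 26 for Col-0 and 27 for Kn-0. For those other genes this threshold was chosen after the data were seen, as were the use of a separate junction-read fit per accession and the MYB34 site. No paired analysis was possible because the columns carry no replicate numbers. The DESeq2 test of junction reads and all settings of the mock comparison between accessions were not run. The depth of MYB51, 60 to 81 junction reads per library, and of CYP81F2 in Kn-0, 4 to 73, limits what their library values can show.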
